A study of Mus musculus with 12 samples.

Results

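The 10 genes described here are 4 Notch receptors (Notch1, Notch2, Notch3, Notch4), 4 of their ligands (Jag1, Jag2, Dll1, Dll4), the target gene Hey1 and the modifier Dtx1. They were taken by name out of 32052 genes in the deposited count table, and all 10 were among the 16757 genes with enough counts to test. The measurements are RNA sequencing of mouse gut stroma sorted to be free of EPCAM, an epithelial surface protein, and of CD45, a leukocyte surface protein. The stroma was then split on a GFP reporter of Rspo3, which encodes a secreted protein that strengthens Wnt signals. The 4 groups are small intestine GFP-positive, small intestine GFP-negative, colon GFP-positive and colon GFP-negative cells, with 3 libraries each. All animals had a C57Bl6 background and were 8 to 12 weeks old, and all groups come from the same reporter, whose construction is not given in the sources used here. The sample descriptions carry a shared identifier in both sorts of replicate 3 of both tissues, and another in both sorts of colon replicate 2. What these identifiers mark is not stated, so the p-values measure the spread between libraries, which may be technical and in part shared between tissues. The CD31-sorted samples that the design text names are not analysed here.

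Notch signalling passes between touching cells. A ligand of the Jagged or Delta-like family on one cell pulls on a Notch receptor on its neighbour, the protease ADAM10 and then the γ-secretase complex cut the receptor, and the freed intracellular part joins RBPJ and a Mastermind-like protein in the nucleus to switch on Hes and Hey repressor genes. In blood vessels, NOTCH1, NOTCH4 and DLL4 are known from endothelial cells, where DLL4 restrains sprouting and favours arterial fate, and NOTCH3 is known from mural cells, the pericytes and smooth muscle that wrap the endothelium. DLL4 is also known from the lacteals, the lymphatic vessels of intestinal villi, and JAG1 from both endothelium and vascular smooth muscle.

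The libraries held 6489835 to 12286054 counts each. Levels are given as CPM, that is, counts put on one library size by TMM scaling. Rspo3 itself lay between 117 and 196 CPM in the 6 GFP-positive libraries and between 2.28 and 13.7 CPM in the 6 GFP-negative libraries. Epcam reached 2.17 CPM in small intestine GFP-positive, 90.5 CPM in small intestine GFP-negative, 170 CPM in colon GFP-positive and 182 CPM in colon GFP-negative libraries. Ptprc, which encodes CD45, was at most 10.2 CPM in 11 libraries and at 304 CPM in replicate 3 of small intestine GFP-negative cells. Both small intestine replicates numbered 3 stood apart. The summed level of 12 pan-endothelial markers was 818 CPM in GFP-positive replicate 3, against 1720 and 2750 CPM in the other two, and 635 CPM in GFP-negative replicate 3, against 2080 and 1570 CPM. The mitochondrial ribosomal RNA genes took 5.35% to 7.92% of counts in small intestine GFP-positive libraries and 9.73% to 12.7% in small intestine GFP-negative libraries. Values without both small intestine replicates 3 are given where they change a call.

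**Figure D1:**
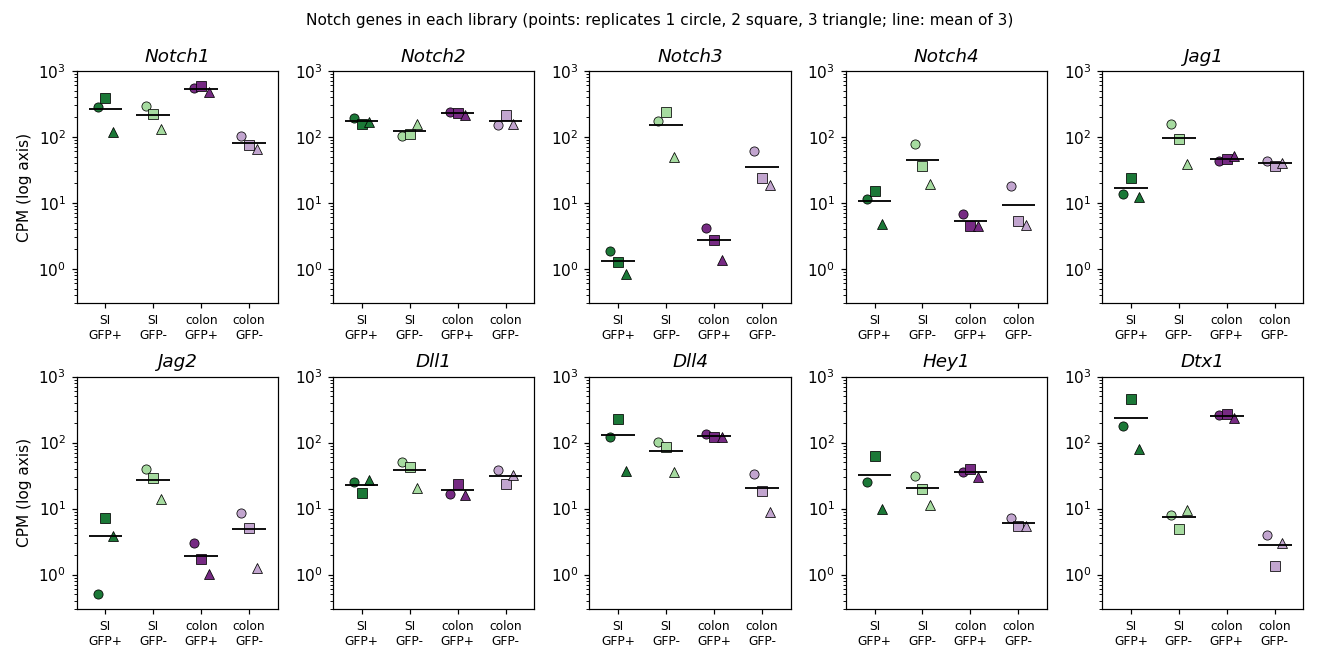
Level of each of the 10 Notch genes in every library, in CPM on a log axis, with the 3 replicates of a group as a circle, square and triangle and the group mean as a line. Notch3 lies at 0.83 to 4.18 CPM in the GFP-positive libraries of both tissues and at 18.6 to 235 CPM in the GFP-negative ones, and Dtx1 shows the opposite order.

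The stretches just upstream of the transcription start sites of Notch3, Dll4 and Hey2 are shown because Notch3 had the largest difference in the small intestine among the 10 genes, Dll4 had the endothelial gene Cdh5 as its nearest profile, and Hey2 is a target gene discussed with them. They come from RefSeq promoters of the GRCm38.p6 assembly and are printed 5′ to 3′ on the strand of the gene, leaving out bases in annotated exons. Notch3 is at chr17:32166891-32167140 on the minus strand, Dll4 at chr2:119325565-119325783 on the plus strand and Hey2 at chr10:30842802-30843033 on the minus strand. Capitals mark motif matches.
Notch3: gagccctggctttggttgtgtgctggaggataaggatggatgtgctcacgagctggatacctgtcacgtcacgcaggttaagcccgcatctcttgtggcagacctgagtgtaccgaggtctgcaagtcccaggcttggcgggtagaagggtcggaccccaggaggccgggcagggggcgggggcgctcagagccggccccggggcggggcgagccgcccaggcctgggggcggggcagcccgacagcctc
Dll4: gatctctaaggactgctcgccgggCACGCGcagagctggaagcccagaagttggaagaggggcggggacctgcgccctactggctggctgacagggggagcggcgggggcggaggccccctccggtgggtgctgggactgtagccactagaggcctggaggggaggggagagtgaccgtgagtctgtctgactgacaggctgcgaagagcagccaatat
Hey2: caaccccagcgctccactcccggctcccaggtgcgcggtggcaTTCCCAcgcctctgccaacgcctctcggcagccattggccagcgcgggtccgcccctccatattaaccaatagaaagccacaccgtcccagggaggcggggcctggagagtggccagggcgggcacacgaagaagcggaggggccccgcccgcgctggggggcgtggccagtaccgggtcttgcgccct

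Of the 10 genes, 9 had a promoter in the RefSeq table, giving 10 windows of 250 upstream bases because Dll1 had a pair, and Hey1 had no entry. Motifs were searched on both strands. The RBPJ core TGGGAA was in 0 of the 10 windows, against 21.6% of all 32851 promoters. The palindromic E-box CACGTG was also in 0 of the 10 windows, against 6.02% of all promoters. The box CACGCG, which Hes and Hey repressors are known to bind, was in 5 of the 10 windows, against 7.62% of all promoters. Its matches lay at -68 in a Dll1 window, -195 in Dll4, -77 in Dtx1, -249 and -171 in Jag1 and -42 in Notch2, counted from the start site. Hey2 held the RBPJ core in reverse (TTCCCA) at -207. These motifs were chosen after several had been searched, and a match describes letters only.

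Notch3, on the minus strand of chromosome 17 (chr17:32120820-32166852, GRCm38), was very low in Rspo3-GFP-positive cells of both tissues. In bulk RNA, fewer cells of a type and less RNA per cell cannot be told apart. In the small intestine it had 1.83, 1.28 and 0.83 CPM in GFP-positive libraries, against 176, 235 and 49.9 CPM in GFP-negative libraries. The smallest GFP-negative value was far above every GFP-positive one, and the difference was -6.82 ± 0.78 on the log2 scale (SE, n = 3 each, adjusted p = 0.000553), or 113-fold lower. In the colon it had 4.18, 2.77 and 1.37 CPM in GFP-positive libraries, against 61.6, 23.6 and 18.6 CPM in GFP-negative libraries. Again the groups were apart, by -3.63 ± 0.68 (adjusted p = 0.00702), or 12.4-fold lower. Both calls held when any of the 6 libraries of the tissue was left out, with adjusted p up to 0.00435 for small intestine and 0.0433 for colon. On the deposited log2(TPM + 1) scale, where TPM is transcript abundance per length, the colon difference did not pass the test (adjusted p = 0.139). On log2(TPM + 0.1), from the same table, it was -2.15 and passed (adjusted p = 0.00932).

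The other receptors did not follow Notch3. Notch1, at chr2:26457903-26516663 on the minus strand, had 539, 585 and 480 CPM in colon GFP-positive libraries, against 103, 74.3 and 66.0 CPM in colon GFP-negative libraries. It rose by 2.72 ± 0.41 (adjusted p = 0.00139), or 6.58-fold, and this held with any colon library left out. In the small intestine the 2 sorts overlapped, with 279, 389 and 119 CPM in GFP-positive libraries and 295, 220 and 130 CPM in GFP-negative libraries. The small intestine difference was 0.29 ± 0.38 (adjusted p = 0.726), with an approximate 95% interval of -0.46 to 1.04.

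Notch4, at chr17:34564268-34588503 on the plus strand, had 11.5, 15.3 and 4.72 CPM in small intestine GFP-positive libraries, against 76.6, 35.8 and 19.1 CPM in GFP-negative libraries. These groups did not overlap in CPM, but the difference of -2.06 ± 0.63 did not pass the test (adjusted p = 0.0579). With the replicate number as a block, which treats same-numbered sorts as pairs, it did (-1.99, adjusted p = 0.013). On the log2(TPM + 1) scale it did not (adjusted p = 0.569). There the groups overlapped, at 0.324, 2.47 and 0.0716 TPM in GFP-positive and 7.70, 1.46 and 0.418 TPM in GFP-negative libraries. In the colon Notch4 had 6.70, 4.49 and 4.46 CPM in GFP-positive libraries and 17.9, 5.37 and 4.56 CPM in GFP-negative libraries. There the difference was -0.82 ± 0.63 (adjusted p = 0.561), and without GFP-negative replicate 1 it was 0.06.

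Notch2, at chr3:98013527-98150361 on the plus strand, varied least among the receptors. Its means were 172 ± 18.8 CPM in small intestine GFP-positive, 122 ± 28.6 CPM in small intestine GFP-negative, 226 ± 12.3 CPM in colon GFP-positive and 172 ± 33.9 CPM in colon GFP-negative cells (SD, n = 3). All GFP-positive values were above the GFP-negative ones in both tissues, by 0.49 ± 0.20 for small intestine (adjusted p = 0.152) and 0.39 ± 0.20 for colon (adjusted p = 0.317), and neither passed the test.

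Jag1 was the ligand that fell in the small intestine. It lies at chr2:137081456-137116644 on the minus strand and had 13.6, 23.9 and 12.2 CPM in small intestine GFP-positive libraries, against 154, 91.6 and 38.9 CPM in GFP-negative libraries. The groups were apart, by -2.52 ± 0.41 (adjusted p = 0.00237), or 5.72-fold lower, and the call held with any small intestine library left out. It did not pass on the log2(TPM + 1) scale (-0.89, adjusted p = 0.178). In the colon Jag1 had 43.0, 46.8 and 50.6 CPM in GFP-positive libraries and 43.4, 36.3 and 39.8 CPM in GFP-negative libraries. The colon groups overlapped, with a difference of 0.23 ± 0.39 (adjusted p = 0.832) and an approximate 95% interval of -0.53 to 1.00.

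Dll4, at chr2:119325784-119335962 on the plus strand, had 137, 122 and 120 CPM in colon GFP-positive libraries, against 33.7, 18.2 and 8.87 CPM in colon GFP-negative libraries. It rose by 2.65 ± 0.66 (adjusted p = 0.0322), or 6.27-fold. The groups were far apart, but the adjusted p was above 0.05 in 5 of the 6 fits that left out a colon library, up to 0.122 without GFP-negative replicate 2, and the call held without GFP-negative replicate 1. With no filter on low counts the adjusted p was 0.116. In the small intestine Dll4 had 123, 226 and 37.4 CPM in GFP-positive libraries and 103, 84.6 and 35.2 CPM in GFP-negative libraries. These overlapped, with both replicates 3 lowest in their group, and the difference of 0.80 ± 0.62 did not pass the test (adjusted p = 0.507).

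Jag2 and Dll1 were lower in GFP-positive cells of both tissues without passing the test. Jag2, at chr12:112907819-112929776, had 0.50, 7.29 and 3.78 CPM in small intestine GFP-positive libraries, against 39.4, 28.6 and 14.2 CPM in GFP-negative libraries, a difference of -2.83 ± 0.85 between groups that did not overlap (adjusted p = 0.0552). Its colon levels were 2.97, 1.72 and 1.03 CPM in GFP-positive libraries and 8.65, 5.03 and 1.27 CPM in GFP-negative libraries (-1.37 ± 0.86, adjusted p = 0.442). Dll1, at chr17:15367354-15376872, averaged 23.1 ± 5.27 CPM in small intestine GFP-positive and 38.2 ± 15.7 CPM in GFP-negative cells, and 19 ± 4.05 CPM in colon GFP-positive and 31.3 ± 7.41 CPM in GFP-negative cells (SD, n = 3). Its log2 differences were -0.73 ± 0.32 (adjusted p = 0.193) for small intestine and -0.72 ± 0.33 (adjusted p = 0.241) for colon, and on the log2(TPM + 1) scale the small intestine direction turned to 0.16 for Dll1. Without small intestine GFP-negative replicate 3, the library with the leukocyte transcripts, Notch2, Notch4, Jag2 and Dll1 all passed in the small intestine. Their adjusted p was 0.0445, 0.0275, 0.0463 and 0.0333 in that order. Each passed in only this 1 of the 6 fits that left out a small intestine library. Over those fits the adjusted p reached 0.358, 0.185, 0.147 and 0.461 in the same order. Without both small intestine replicates 3, Dll1 passed there (-1.14, adjusted p = 0.0367). Notch2, Notch4 and Jag2 then did not pass (adjusted p = 0.059, 0.06 and 0.106).

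Dtx1 encodes Deltex 1, a ubiquitin ligase that binds the intracellular part of Notch, and is at chr5:120680202-120711927 on the minus strand. It was high in GFP-positive and low in GFP-negative cells of both tissues. In the small intestine it had 180, 455 and 79.3 CPM in GFP-positive libraries, against 7.94, 4.91 and 9.65 CPM in GFP-negative libraries, and it rose by 5.0 ± 0.62 (adjusted p = 0.000669), or 32.0-fold. In the colon it had 259, 275 and 232 CPM in GFP-positive libraries, against 3.96, 1.37 and 3.04 CPM in GFP-negative libraries, and it rose by 6.53 ± 0.68 (adjusted p = 0.000307), or 92.6-fold. Neither call was lost when any library of its tissue was left out.

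Hey1, a transcriptional repressor switched on by Notch, is at chr3:8663359-8667256 on the minus strand. It had 36.3, 39.8 and 30.5 CPM in colon GFP-positive libraries, against 7.19, 5.37 and 5.45 CPM in GFP-negative libraries, and rose by 2.57 ± 0.56 (adjusted p = 0.0141), or 5.92-fold. The groups were well apart, and the adjusted p was above 0.05 without GFP-positive replicate 2 (0.0511), GFP-negative replicate 2 (0.069) or GFP-negative replicate 3 (0.0651), with no filter on low counts (0.0569) and on the log2(TPM + 1) scale (0.0517). In the small intestine it had 24.9, 61.5 and 9.80 CPM in GFP-positive libraries and 31.0, 19.9 and 11.4 CPM in GFP-negative libraries, overlapping ranges with a difference of 0.62 ± 0.53 (adjusted p = 0.542).

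**Figure D2:**
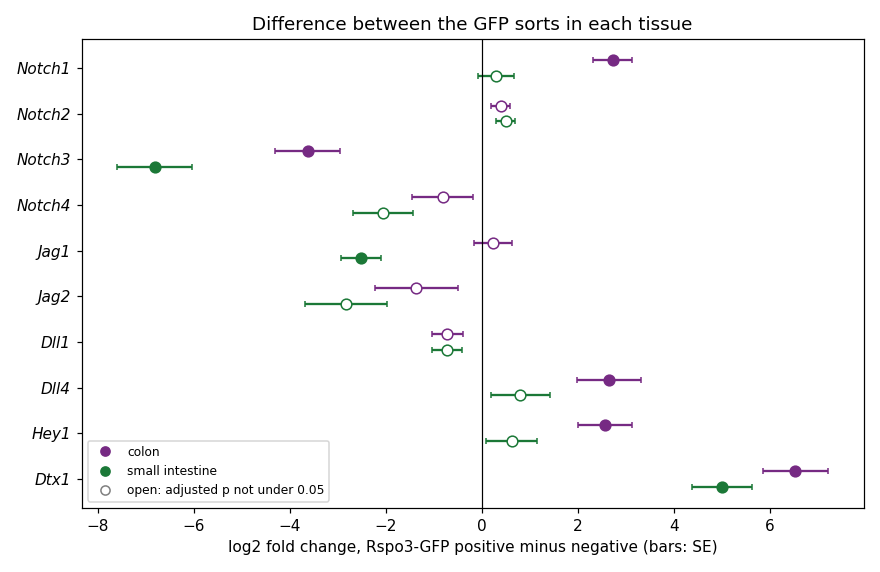
Log2 fold change of GFP-positive over GFP-negative cells for the 10 genes in the colon (purple) and the small intestine (green), with the standard error as a bar. Filled points passed an adjusted p of 0.05, which were Notch1, Notch3, Dll4, Hey1 and Dtx1 in the colon and Notch3, Jag1 and Dtx1 in the small intestine.

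Counted together, 3 of the 10 genes passed in the small intestine, 1 higher and 2 lower, where 10.9% of all tested genes did, 4.24% higher and 6.63% lower. In the colon 5 passed, 4 higher and 1 lower, where 8.69% of all tested genes did, 4.62% higher and 4.06% lower. The median log2 difference of the 10 was -0.22 for small intestine and 0.31 for colon, with -0.03 over all tested genes in each. Of the 10 genes, 6 had groups that did not overlap in the small intestine, 2 higher and 4 lower, where 21.9% of all tested genes did, 9.56% higher and 12.3% lower. In the colon 7 did not overlap, 5 higher and 2 lower, where 35.6% of all tested genes did, 17.8% each way.

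The GFP difference itself differed between the tissues for Notch1 and Jag1. For Notch1 the colon difference exceeded that of the small intestine by 2.43 ± 0.55 (adjusted p = 0.0431), and for Jag1 by 2.75 ± 0.56 (adjusted p = 0.0301), where 2.06% of all tested genes passed and 1.16% did so with a higher colon difference. These are narrow calls. In the 12 fits that each left out 1 library, Notch1 passed in 3, with adjusted p up to 0.119, and Jag1 passed in 4, with adjusted p up to 0.0878, both highest without colon GFP-negative replicate 2. On the log2(TPM + 1) scale the adjusted p was 0.09 for Notch1 and 0.447 for Jag1. The Notch3 differences of -3.63 in colon and -6.82 in small intestine differed by 3.19 ± 0.95, which did not pass (adjusted p = 0.125). With the replicate number as a block it passed (3.17, adjusted p = 0.0187), and DESeq2 called it too (adjusted p = 0.003). It passed in 1 of the 12 fits that left out 1 library, with adjusted p up to 0.288. On log2(TPM + 1) (adjusted p = 0.108), with RLE factors (0.118) and with no filter on low counts (0.318) it did not pass. The median of this tissue difference over the 10 genes was 1.69, against 0.04 over all tested genes. Over the 12 pan-endothelial markers described below it was 2.31, near the Notch1 value, and 1 of them passed. Other marker lists described below also had positive medians. These were 2.49 for glial, 2.34 for blood endothelial, 2.03 for lymphatic, 3.22 for arterial and 3.88 for leukocyte markers. The epithelial median was 5.34, and 6 of 13 tested epithelial markers passed. Medians were negative for mural (-0.89), smooth muscle (-0.97), fibroblast (-1.19) and telocyte and subepithelial myofibroblast markers (-2.97). The endothelial gene Cdh5 was at 2.45 ± 0.82 (adjusted p = 0.177). The part of endothelial or other cell content in the Notch1 and Jag1 differences was not tested.

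Marker genes of other cell types moved with these differences, and their part in the results was not tested. Over all tested genes, 4.24% rose and 6.63% fell in the small intestine, and 4.62% rose and 4.06% fell in the colon. Lymphatic endothelial markers, 10 in all, rose for 8 in small intestine GFP-positive cells and for 9 in colon GFP-positive cells. Their summed level was 4370 to 15200 CPM in small intestine GFP-positive against 224 to 604 CPM in GFP-negative libraries, and 18400 to 21400 CPM in colon GFP-positive against 262 to 372 CPM in GFP-negative libraries. The 12 pan-endothelial markers summed to 818 to 2750 CPM in small intestine GFP-positive and 635 to 2080 CPM in GFP-negative libraries, where 0 rose and 2 fell. In the colon they summed to 2290 to 2740 CPM in GFP-positive and 288 to 737 CPM in GFP-negative libraries, and 9 rose. Of 12 blood endothelial markers, 2 rose and 8 fell in small intestine, with Gpihbp1 up by 2.94 and Cd34 up by 1.33. In colon 2 rose and 5 fell, with Gpihbp1 up by 5.87 and the receptor gene Kdr up by 2.48 (adjusted p = 0.0176). Their sum was 1010 to 1260 CPM in small intestine GFP-positive against 1120 to 3700 CPM in GFP-negative libraries, and 1120 to 1190 CPM in colon GFP-positive against 557 to 1160 CPM in GFP-negative libraries. Among those that fell, the receptor gene Flt1 was at 1.16 to 5.32 CPM in small intestine GFP-positive against 177 to 609 CPM in GFP-negative libraries, and at 2.75 to 6.60 CPM in colon GFP-positive against 61.2 to 222 CPM in GFP-negative libraries.

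Some mural markers were lower in GFP-positive cells, and others were not. Of 10 mural markers 9 were tested, of which 4 fell and 5 did not pass in each tissue. The proteoglycan gene Cspg4 (NG2) fell by 3.37 on the log2 scale in the small intestine (SE 0.35, adjusted p = 0.000201) and by 1.81 in the colon (SE 0.33, adjusted p = 0.00395). Cox4i2 was at 0 in all small intestine GFP-positive libraries, against 1.13 to 4.80 CPM in GFP-negative libraries. In the colon it did not pass (-1.66, SE 1.04, adjusted p = 0.451). Higd1b, not tested, was at 0 in all GFP-positive libraries of both tissues and at most 1.26 CPM in GFP-negative ones. Rgs5 stayed at 116 to 341 CPM in small intestine GFP-positive libraries, against 178 to 690 CPM in GFP-negative libraries. The summed mural level was 506 to 703 CPM in small intestine GFP-positive against 547 to 1860 CPM in GFP-negative libraries, and 234 to 257 CPM in colon GFP-positive against 556 to 865 CPM in GFP-negative libraries. The 10 smooth muscle markers summed to 1090 to 1280 CPM in small intestine GFP-positive against 1680 to 4610 CPM in GFP-negative libraries, and 687 to 803 CPM in colon GFP-positive against 3240 to 4220 CPM in GFP-negative libraries.

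Arterial and epithelial markers also moved. Of 10 arterial markers 9 were tested and 5 fell in the small intestine, while 1 rose and 1 fell in the colon. Of 14 epithelial markers 13 were tested, of which 10 fell in small intestine and 1 in colon. Their sum was 7.15 to 17.8 CPM in small intestine GFP-positive against 284 to 1020 CPM in GFP-negative libraries, and 333 to 1860 CPM in colon GFP-positive against 1080 to 2480 CPM in GFP-negative libraries. Of the 10 fibroblast markers, 9 rose in small intestine and 4 in colon GFP-positive cells. All 8 markers of telocytes and subepithelial myofibroblasts fell in colon, where they summed to 554 to 595 CPM in GFP-positive against 2190 to 2310 CPM in GFP-negative libraries. None of the 8 passed in small intestine, with 757 to 1550 CPM in GFP-positive and 632 to 1270 CPM in GFP-negative libraries. Of 8 glial markers 7 were tested, of which 6 fell in small intestine and 3 in colon. Glial sums were 9.36 to 20 CPM in small intestine GFP-positive against 140 to 308 CPM in GFP-negative libraries, and 2.64 to 4.94 CPM in colon GFP-positive against 20.5 to 59.4 CPM in GFP-negative libraries. Of 10 leukocyte markers 6 were tested, and 1 fell in small intestine and 0 in colon.

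To compare genes with each other, CPM were divided by the length of each gene's merged exons. On this scale of CPM per kilobase, Notch3 was the smallest share of receptor RNA in GFP-positive cells, 0.452% ± 0.113 in small intestine and 0.567% ± 0.268 in colon. In GFP-negative cells its share was 34.5% ± 14.9 in small intestine and 15.1% ± 8.16 in colon (SD, n = 3). Notch1 held 48.8% ± 14.0 of receptor RNA in small intestine GFP-positive and 29.4% ± 3.95 in GFP-negative cells, and 63.1% ± 1.42 in colon GFP-positive and 21% ± 2.50 in GFP-negative cells. Notch2 held most of the rest, 59.8% ± 13 in colon GFP-negative cells, the group where Notch1 was lowest. Dll4 held the largest share of ligand RNA on this scale in every GFP-positive library, with a mean of 72.5% ± 18.2 in small intestine and 71.9% ± 2.83 in colon, against 40.1% ± 2.27 in small intestine GFP-negative and 24.6% ± 9.94 in colon GFP-negative cells. Jag1 took 7.66% ± 3.03 of ligand RNA in small intestine GFP-positive and 32.3% ± 4.32 in GFP-negative cells, and 17.6% ± 2.11 in colon GFP-positive and 34.9% ± 6.29 in GFP-negative cells. Length here ignores which isoform was made. Shares differ in deposited TPM. There Notch4 was at 7.70, 1.46 and 0.418 TPM in the 3 small intestine GFP-negative libraries. Dll4 averaged 55.2% of ligand TPM in small intestine GFP-positive and 36.5% in GFP-negative cells, and 59.2% in colon GFP-positive and 15.4% in GFP-negative cells. In small intestine GFP-positive replicate 3, Dll1 held 58.8% of ligand TPM and Dll4 24.7%.

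**Figure D3:**
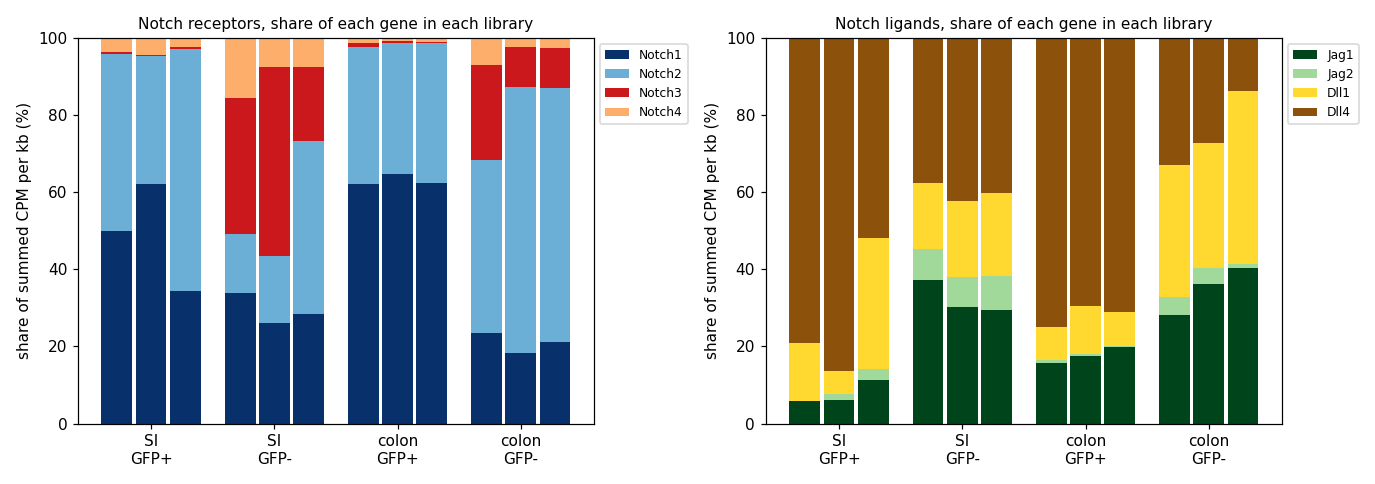
Share of each receptor (left) and each ligand (right) in the summed CPM per kilobase of its class, 1 bar per library in replicate order. Notch3 (red) is 0.313% to 0.847% of receptor RNA in the GFP-positive libraries and 10.3% to 49.0% in the GFP-negative ones, and Dll4 (brown) is 52.0% to 86.5% of ligand RNA in the GFP-positive libraries and 13.6% to 42.2% in the GFP-negative ones.

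In levels per kilobase, Dtx1 was highest of the 10 in both GFP-positive groups, at 45.2 ± 36.9 CPM per kilobase in small intestine and 48.5 ± 4.16 in colon. In small intestine GFP-positive cells Dll4 followed at 33.5 ± 24.5, then Notch1 at 18.4 ± 9.55 and Notch2 at 16 ± 1.74, and neighbours in the order overlapped down to Jag1 at 2.84 ± 1.09. Below it were Notch4, Jag2 and, last, Notch3 at 0.162 ± 0.0621. In small intestine GFP-negative cells Dll4 (19.3 ± 9.08), Notch3 (19 ± 11.7), Jag1 (16.3 ± 9.86), Notch1 (15.1 ± 5.82) and Notch2 (11.4 ± 2.65) overlapped each next gene, and Dtx1 was last at 1.42 ± 0.455. In colon GFP-positive cells Notch1 (37.6 ± 3.68) and Dll4 (32.9 ± 2.38) overlapped below Dtx1, and Notch2 (21 ± 1.14), Hey1 (10.9 ± 1.43), Jag1 (8.03 ± 0.657), Dll1 (4.50 ± 0.961) and Notch4 (0.647 ± 0.160) each stood apart from the next. Notch3 (0.343 ± 0.173) and Jag2 (0.273 ± 0.141) came last and overlapped. In colon GFP-negative cells Notch2 (15.9 ± 3.14) stood alone at the top, Dll1 to Notch3 overlapped neighbour by neighbour from 7.43 ± 1.76 to 4.28 ± 2.91, and Hey1, Notch4, Jag2 and Dtx1 lay lower, between 1.84 ± 0.315 and 0.529 ± 0.249 (SD, n = 3).

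Notch3, known from mural cells, was then set against Notch4, a receptor known from endothelial cells, in each library. The log2 ratio of Notch3 to Notch4 CPM was -2.51, -3.36 and -2.23 in small intestine GFP-positive libraries, against 1.19, 2.70 and 1.37 in GFP-negative libraries. In the colon it was -0.65, -0.65 and -1.55 in GFP-positive libraries, against 1.77, 2.09 and 1.98 in GFP-negative libraries. All GFP-positive ratios were below 0 and all GFP-negative ratios above it. The mean difference over both tissues was -3.68, with -4.45 in small intestine and -2.90 in colon. An exact two-sided permutation test within tissue gave p = 0.005, the smallest its 400 arrangements allow. This pair was chosen with earlier results known, and Notch3 alone already had groups apart in both tissues of these libraries. The p-value is therefore no support separate from the Notch3 difference. With the deposited log2(TPM + 1) values the difference was -0.52 (exact permutation p = 0.28), and with log2(TPM + 0.1) it was -1.99 (exact permutation p = 0.04).

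Against Dll4 the contrast was larger, given as values only. The log2 ratio of Notch3 to Dll4 averaged -6.09 ± 1.05 in small intestine GFP-positive and 0.91 ± 0.50 in GFP-negative cells, and -5.52 ± 0.65 in colon GFP-positive and 0.76 ± 0.35 in GFP-negative cells (SD, n = 3). Against Notch1 it averaged -7.30 ± 0.63 in small intestine GFP-positive and -0.68 ± 0.74 in GFP-negative cells, and -7.59 ± 0.65 in colon GFP-positive and -1.40 ± 0.57 in GFP-negative cells.

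**Figure D4:**
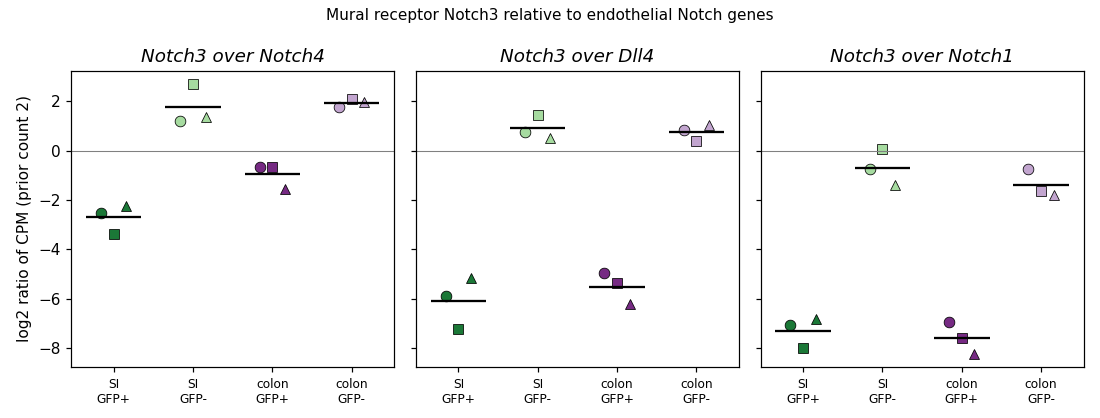
Log2 ratio of Notch3 CPM to that of Notch4, Dll4 and Notch1 in each library (prior count 2), with replicates 1 to 3 as a circle, square and triangle and the group mean as a line. The Notch3 to Notch4 ratio is -3.36 to -0.65 in the 6 GFP-positive libraries and 1.19 to 2.70 in the 6 GFP-negative ones.

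Dividing by the endothelial cadherin gene Cdh5 split Dll4, Hey1, Notch1, Notch4, Jag2 and Dtx1 into 3 patterns. Which cells the RNA of these genes came from was not tested. This gene was chosen after the values were seen, and the ratios are descriptions. Dll4 had similar ratios in the 4 groups, at 31.8 ± 7.59 counts per 100 Cdh5 counts in small intestine GFP-positive, 27.4 ± 2.12 in small intestine GFP-negative, 25.1 ± 1.25 in colon GFP-positive and 29.6 ± 1.30 in colon GFP-negative cells (SD, n = 3). Hey1 was at 7.80 ± 2.36, 7.87 ± 1.58, 7.01 ± 0.590 and 11.3 ± 6.90 in the same order of groups, and Notch1 at 72.2 ± 4.95, 84.0 ± 21.2, 106 ± 6.79 and 146 ± 75.6. In colon GFP-negative cells replicate 3 was highest, with 19.1 Hey1 and 232 Notch1 counts per 100 Cdh5 counts.

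Notch4 and Jag2 were lower against Cdh5 in GFP-positive cells. Notch4 had 2.89 ± 0.252 counts per 100 Cdh5 counts in small intestine GFP-positive against 15.5 ± 3.63 in GFP-negative cells, and 1.03 ± 0.193 in colon GFP-positive against 13.3 ± 4.06 in GFP-negative cells. Jag2 had 1.25 ± 1.13 in small intestine GFP-positive against 10.3 ± 1.38 in GFP-negative cells, and 0.368 ± 0.166 in colon GFP-positive against 6.62 ± 1.92 in GFP-negative cells. In neither tissue did the sorts overlap for these genes. Dtx1 went the other way, with 58.7 ± 16.5 in small intestine GFP-positive against 3.87 ± 3.65 in GFP-negative cells, and 50.5 ± 2.62 in colon GFP-positive against 5.41 ± 4.59 in GFP-negative cells. Notch3 against the mural gene Cspg4 was also lower in GFP-positive cells, at 6.96 ± 2.70 per 100 Cspg4 counts against 77.4 ± 36.7 in the small intestine and 12.3 ± 7.46 against 41.3 ± 24.1 in the colon.

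**Figure D5:**
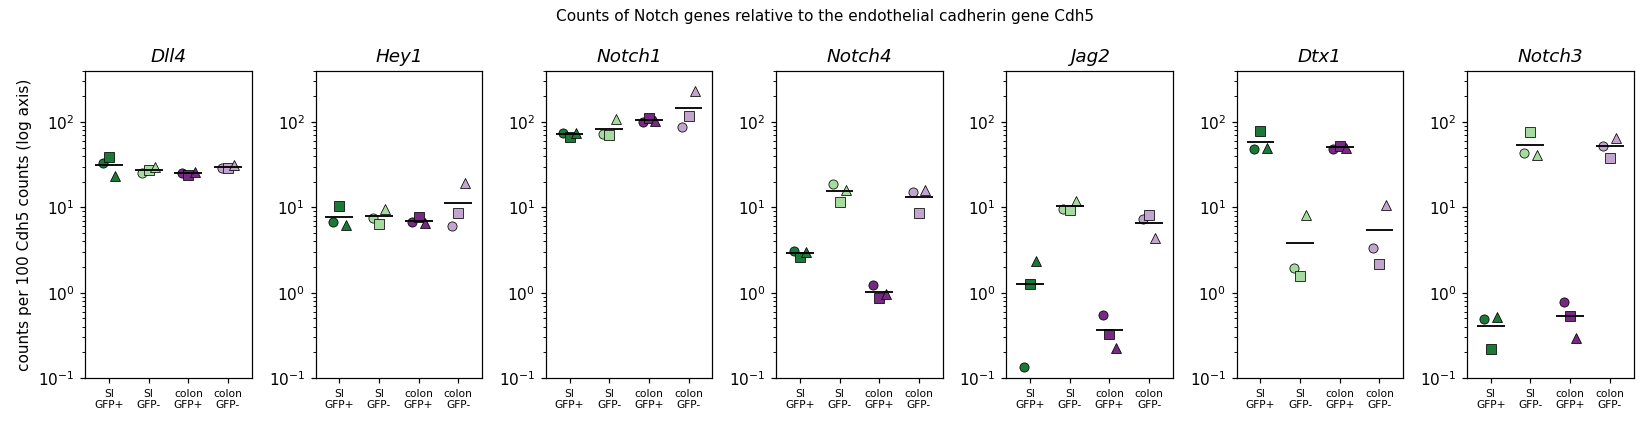
Counts of 7 Notch genes per 100 counts of Cdh5 in each library, on a log axis, with replicates 1 to 3 as a circle, square and triangle and the group mean as a line. Dll4 lies between 23.6 and 38.6 in all 12 libraries, Notch4 and Jag2 are lower in the GFP-positive libraries, and Dtx1 is higher there.

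The profiles most like each member over the 12 libraries were found by the mean absolute difference of log2 CPM after centring each gene. For Dll4 the nearest of 9340 genes was Cdh5, at 0.164, where the median gene was at 1.18, and the next were Rgs16, Robo4, Fam43a and Hey1 (0.275). Hey1 was nearest to Notch1 (0.249), followed by Plxna4, Gpr146, Tbkbp1 and Dll4. Notch3 was nearest to Plvap (0.682), Vwf (0.694), Flt1 (0.742), Chl1 (0.791) and Pcdh1 (0.846), with the median gene at 2.50. Of these, Plvap, Vwf and Flt1 are on the list of blood endothelial markers and none is on the mural list. Candidates needed a mean log2 CPM of at least 3, so low mural genes such as Cox4i2 and Higd1b could not appear. The distance takes in the size of a change as well as its direction. Notch4 was nearest to Fabp4 (0.372), then Rapgef3, Rasa4, Lipe and Ehd3. Jag1 was nearest to Nxpe4 (0.218), then Rasd1, Slc12a7, Sbno2 and Cpe. Dtx1 was nearest to Lcn2 (0.386), Reln (0.553), Flt4 (0.572), Adgrg3 (0.583) and Stab1 (0.624), with the median gene at 2.76. Reln and Flt4 are on the list of lymphatic endothelial markers. Profiles share libraries, depth and cell mixture, so these distances are descriptions.

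Between the tissues, no member passed the test in either sort. These comparisons use the same libraries as the GFP comparisons. In GFP-positive cells 0 of 10 passed, where 4.57% of all tested genes did, and 2 had an unadjusted p under 0.05, where 16.3% of all tested genes did. Jag1 came nearest, higher in colon by 1.5 ± 0.40 (adjusted p = 0.0573) with groups that did not overlap, and passed without both small intestine replicates 3 (1.32, adjusted p = 0.0224). DESeq2 called 1 member there, Jag1 (adjusted p = 0.00393), among 1390 genes in all, against 765 by edgeR. In GFP-negative cells 0 of 10 passed, where 4.21% of all tested genes did, but 9 had an unadjusted p under 0.05, where 18.2% of all tested genes did. Of the 10 genes, 9 were lower in colon, with a median of -1.61 against -0.06 over all tested genes, and 6 had groups that did not overlap, where 11.0% of all tested genes were lower without overlap.

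The lower members in colon GFP-negative cells included Jag2 (-2.46 ± 0.84, adjusted p = 0.131), Notch4 (-2.25 ± 0.63, 0.075), Notch3 (-2.15 ± 0.60, 0.077) and Dll4 (-1.88 ± 0.65, 0.143). Also lower were Hey1 (-1.79 ± 0.56, 0.0986), Dtx1 (-1.43 ± 0.62, 0.249), Notch1 (-1.40 ± 0.39, 0.0678) and Jag1 (-1.25 ± 0.39, 0.101). Notch2 was the exception at 0.49 ± 0.20 (0.211). Dll1, at -0.29 ± 0.32, turned to 0.52 on the log2(TPM + 1) scale, which shifts the median of all genes by 0.251. DESeq2 called 7 of the 10 genes, among 1635 genes in all, and 6 passed without both small intestine replicates 3, among 1030, where edgeR on all libraries called 706 genes and 0 of the 10. Those 6 were Notch1 (-1.66, adjusted p = 0.00325), Notch3 (-2.57, 0.013), Notch4 (-2.61, 0.019), Jag1 (-1.62, 0.0053), Dll4 (-2.21, 0.0156) and Hey1 (-2.08, 0.00749). Beside this, pan-endothelial markers summed to 288 to 737 CPM in colon GFP-negative and 635 to 2080 CPM in small intestine GFP-negative libraries, and mural markers to 556 to 865 CPM in colon and 547 to 1860 CPM in small intestine libraries. Their part in the difference was not tested.

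Among 15 genes that cut or glycosylate Notch receptors, all tested, 2 rose and 1 fell in the small intestine and 4 rose in the colon. Over all tested genes, 4.24% rose and 6.63% fell in the small intestine, and 4.62% rose in the colon. Psen2, which encodes a catalytic subunit of γ-secretase, averaged 35.4 ± 11.5 CPM in small intestine GFP-positive and 14.8 ± 1.62 CPM in GFP-negative cells (log2 difference 1.25 ± 0.25, adjusted p = 0.00675), and 52.5 ± 6.43 CPM in colon GFP-positive and 17.2 ± 3.44 CPM in GFP-negative cells (1.61 ± 0.25, adjusted p = 0.00166). Aph1b, another γ-secretase subunit, rose in both tissues, by 1.5 ± 0.25 (adjusted p = 0.00221) and 2.09 ± 0.25 (adjusted p = 0.000398), although reads may be split with its near-identical copy Aph1c. Adam10, the protease of the first cut, rose in the colon, with 241 ± 13.7 CPM in GFP-positive and 90.0 ± 3.52 CPM in GFP-negative cells (1.42 ± 0.20, adjusted p = 0.000813). The Fringe glycosyltransferase gene Lfng rose there too, with 16.3 ± 7.98 CPM in GFP-positive and 2.96 ± 0.825 CPM in GFP-negative cells (2.46 ± 0.59, adjusted p = 0.0213), a call kept in 7 of 12 fits that left out 1 library. Mfng, another Fringe gene, fell in the small intestine, to 0.0722 ± 0.0633 CPM in GFP-positive against 3.63 ± 0.974 CPM in GFP-negative cells (adjusted p = 0.0119). The median log2 difference of the list was 0.36 for small intestine and -0.02 for colon, with -0.03 over all tested genes in each.

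Few genes of trafficking and of the nuclear complex passed. Of 13 genes of ligand and receptor trafficking 0 passed in the small intestine and 1 fell in the colon, the ubiquitin ligase gene Dtx4, with 57.6 ± 3.16 CPM in GFP-positive and 129 ± 7.20 CPM in GFP-negative cells (-1.17 ± 0.31, adjusted p = 0.0326, kept in 6 of 12 such fits). Of 11 genes of the nuclear complex 0 passed in the small intestine and the coactivator gene Maml2 rose in the colon, with 80.9 ± 3.05 CPM in GFP-positive and 42.1 ± 7.95 CPM in GFP-negative cells (0.94 ± 0.21, adjusted p = 0.0124). Rbpj, the DNA-binding partner of Notch, averaged 83.3 ± 4.27 CPM in small intestine GFP-positive and 73.9 ± 17.3 CPM in GFP-negative cells, and 90.1 ± 17.8 CPM in colon GFP-positive and 89.4 ± 3.14 CPM in GFP-negative cells.

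Of 10 other Notch targets 8 were tested, and 3 fell in the small intestine, where 6.63% of all tested genes fell. In the colon 1 rose and 1 fell, where 4.62% of all tested genes rose and 4.06% fell. Hey2, a Hey1 relative known from arteries and on the arterial list too, had 1.49 ± 0.939 CPM in small intestine GFP-positive and 23.1 ± 18.3 CPM in GFP-negative cells (-3.93 ± 0.80, adjusted p = 0.00743). Ptp4a3, a phosphatase gene, had 19.2 ± 2.00 CPM in GFP-positive and 51.5 ± 7.92 CPM in GFP-negative cells there (-1.42 ± 0.25, adjusted p = 0.00289). Efnb2, the arterial ephrin ligand gene, fell in both tissues, by 0.93 on the log2 scale in the small intestine (SE 0.25, adjusted p = 0.0326) and by 1.06 in the colon (SE 0.25, adjusted p = 0.0185). Of 12 fits that each left out 1 library, it passed in 7 for small intestine (adjusted p up to 0.115) and in 8 for colon (up to 0.0811). Bcl6b, a repressor gene, rose in the colon, with 45.8 ± 4.60 CPM in GFP-positive and 6.84 ± 4.19 CPM in GFP-negative cells (2.75 ± 0.56, adjusted p = 0.0102). In colon cells Hey2 was at 1.52 ± 0.874 CPM in GFP-positive and 2.55 ± 1.49 CPM in GFP-negative cells (-0.72 ± 0.76, adjusted p = 0.699). Hes1 was higher without passing, at 309 ± 138 CPM in small intestine GFP-positive and 175 ± 60.6 CPM in GFP-negative cells (adjusted p = 0.274), and 215 ± 73.2 CPM in colon GFP-positive and 133 ± 59.6 CPM in GFP-negative cells (adjusted p = 0.428).

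Of 8 other ligand genes 5 were tested. The microfibril genes Mfap5 and Mfap2 rose in the small intestine, by 1.71 ± 0.32 (adjusted p = 0.00446) and 1.39 ± 0.41 (adjusted p = 0.0477), the second in 2 of 12 fits that left out 1 library. Ccn3 rose in the colon, with 58.1 ± 5.54 CPM in GFP-positive and 16.6 ± 2.87 CPM in GFP-negative cells (1.81 ± 0.26, adjusted p = 0.00101). In the small intestine it had 6.03 ± 2.41 CPM in GFP-positive and 10.8 ± 0.762 CPM in GFP-negative cells (-0.83 ± 0.27, adjusted p = 0.0651). This tissue difference of 2.64 ± 0.37 passed (adjusted p = 0.0053) and held in all 12 such fits. Egfl7, an endothelial secreted protein gene, rose in the colon by 3.30 ± 0.74 (adjusted p = 0.019), and passed in 8 of 12 such fits (adjusted p up to 0.0856).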

How the data were processed

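RNA came from column extraction with ZapR removal of ribosomal RNA, per the labels' protocols, and Salmon 1.1.0, R 3.6.1 and the mm10 build are named in the submitters' processing notes. The deposited expected counts per gene are whole in 100% of cells and were used as they are. A further deposited table holds log2(TPM + 1). Symbols and positions came from GENCODE M21 (GRCm38).

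Counts were tested with edgeR 4.0.16 in R 4.3.3 (quasi-likelihood, robust, TMM, filterByExpr with a minimum count of 10), with 1 mean per group over 12 libraries and Benjamini-Hochberg adjustment over 16757 genes, called at 0.05. Standard errors came from the fold change and F statistic. Alternatives were DESeq2 1.42.0, limma 3.58.1 on log2(TPM + 1) and log2(TPM + 0.1), RLE factors, no filter, protein-coding genes, compared libraries alone, a replicate block and each library left out. The procedure was tested on simulated data. Same-numbered sorts deviated weakly together in the small intestine (correlations 0.323, 0.179 and 0.166), which does not establish that they are pairs. The main fits used no replicate block. In the colon the correlations were 0.009, 0.047 and 0.09, although the descriptions share an identifier between the sorts of replicate 2 and of replicate 3.

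The members and lists were chosen with earlier results of these data known. The text names all members, up to 4 called genes per pathway list and comparison by smallest adjusted p, and the 5 nearest profiles of Notch3, Notch4, Dll4, Hey1 and Jag1. Those profiles were sought among tested protein-coding genes at or above a mean log2 CPM of 3. Rbpj and Hes1, as well as Flt1, Gpihbp1, Cd34, Kdr, Rgs5, Kcnj8, Abcc9, Higd1b, Cdh5 and the sort genes, were named after their values were seen. The nearest profiles of Dtx1 were also added after they were seen.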

Additional observations from a re-analysis of the deposited data

Results flagged for a closer look

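Both results here were picked out because the GFP difference was not the same in the 2 tissues by a test of the difference itself. Notch1 was higher in GFP-positive than in GFP-negative cells by 2.72 on the log2 scale in the colon and by 0.29 in the small intestine, and the 2 effects differed by 2.43 (edgeR adjusted p = 0.0431). Jag1 was 0.23 higher in the colon and 2.52 lower in the small intestine on that scale (log2 difference -2.52), and the effects differed by 2.75 (edgeR adjusted p = 0.0301). Over the 12 fits that left out 1 library the adjusted p ranged from 0.0221 to 0.119 for Notch1 and from 0.00322 to 0.0878 for Jag1. The 12 pan-endothelial markers had a median difference between the effects of 2.31, near that of Notch1. Glial (2.49) and blood endothelial (2.34) medians were near it too, and the epithelial median was 5.34. The part of cell content in either result was not tested. Groups of 3 are too small for a check of single outlying libraries.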

How the results depend on the processing

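Of 1040 values recomputed under alternatives, 946 stayed on their side of the threshold, 56 newly passed, 38 no longer passed and 0 reversed among called values. The causes of the shifts were not tested.

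Genes called for GFP in the small intestine numbered 1821, against 671 on log2(TPM + 1), 982 on log2(TPM + 0.1) and 850 with only the compared libraries. In the colon they numbered 1456, against 3016 with only the compared libraries. For the tissue difference they numbered 345, against 1088 by DESeq2, 160 on log2(TPM + 1) and 106 on log2(TPM + 0.1). Colon against small intestine gave 765 in GFP-positive cells, against 1390, 376 and 502 by those 3 methods, and 706 in GFP-negative cells, against 1635, 1509 and 1394, and 406 with only the compared libraries. Leaving out 1 library gave 1239 to 2644 genes in the small intestine, 816 to 1773 in the colon (1919 without both small intestine replicates 3), 69 to 1044 for the tissue difference, 416 to 1050 in GFP-positive and 187 to 1229 in GFP-negative cells between tissues.

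Members called in the small intestine numbered 3, against 5 by DESeq2 and 5 with protein-coding genes only (3 to 7 with 1 library left out). In the colon they numbered 5, against 3 without a filter and 3 on log2(TPM + 1) (3 to 5). For the tissue difference they numbered 2, against 0 on both TPM scales (0 to 3). Between tissues 0 were called in GFP-positive cells, against 1 by DESeq2, 1 with protein-coding genes, 1 with only the compared libraries and 1 without both small intestine replicates 3 (0 to 1). In GFP-negative cells 0 were called, against 7 by DESeq2, 1 with protein-coding genes, 1 on each TPM scale and 6 without both small intestine replicates 3 (0 to 4), an alternative chosen after seeing the data. The TPM scales moved the median of all genes by 0.251 on log2(TPM + 1) and 0.482 on log2(TPM + 0.1) in the GFP-negative tissue comparison, and by 0.149 and 0.329 in the GFP-positive one.

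With the replicate number as a block, the small intestine gave 1931 genes and 4 members and the colon 1535 genes and 5 members. In the colon same-numbered sorts were hardly correlated, although the descriptions share an identifier in replicates 2 and 3, and the block called the same 5 members. The identifier of replicate 3 also links small intestine and colon, so libraries of the 2 tissues may not be independent there. Under the block Notch3 passed for the tissue difference (adjusted p = 0.0187), where 330 of 16757 genes did. Between tissues 2 members passed in GFP-positive cells, among 853 genes, and 4 in GFP-negative cells, among 944 genes, with replicate numbers shared across tissues. The Notch3 to Notch4 log2 ratio difference of -3.68 was -0.52 on deposited log2(TPM + 1) (exact permutation p = 0.28) and -1.99 on log2(TPM + 0.1) (exact permutation p = 0.04). It was -3.82 to -3.44 with 1 library left out. Exact sign flips of same-numbered sorts, taken as pairs, gave p = 0.0312, the smallest they allow. Depth limits Notch3 in GFP-positive and Jag2 in colon libraries, which rest on few counts. The compared libraries alone give no fit of the tissue difference.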
